A study of Mus musculus with 8 samples.

Results

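The glutathione peroxidases of the mouse are encoded by 8 genes, *Gpx1* to *Gpx8*, and their mRNAs were compared between muscle of WT mice and of mice with *Grsf1* deleted in the muscle lineage. Members were the non-control array probes whose RefSeq transcript belongs to 1 of these genes. Each gene had 1 such probe, giving 8 members among 56605 different probes and 22911 named genes. Muscle RNA of 6 male mice aged 17 months, 3 Grsf1cKO and 3 WT, had been hybridized to 8 Agilent arrays in 1 color, since Grsf1cKO 1 and WT 1 were each measured again on a repeat array. The sample labels name the vastus intermedius and the study's text names the rectus femoris, which are different parts of the quadriceps. Grsf1cKO mice descended from the strain C57BL/6N-Atm1Brd Grsf1tm1a(EUCOMM)Wtsi/WtsiIeg, whose *Grsf1* allele, after a cross with FLPo mice, kept LoxP sites around exons 4 and 5, and from Myf5Cre mice. Myf5Cre acts in the muscle lineage, so that *Grsf1* can remain intact in the other cell types of a muscle. The WT mice are labelled as wildtype, and whether they carried the floxed allele or the Cre is not given in the sources used here.

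Glutathione peroxidases reduce hydrogen peroxide and organic hydroperoxides, mostly with glutathione as the electron donor, and several of them carry selenocysteine in the active site. GPX4 reduces phospholipid hydroperoxides within membranes, which holds back the iron-dependent cell death called ferroptosis, and is made in cytosolic, mitochondrial and nuclear forms. GRSF1 binds guanine-rich RNA elements, and *Gpx4* mRNA is a reported target, so that *Gpx4* was compared with the rest of the family.

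The letters AGGGGA, a guanine-rich element of the kind GRSF1 binds, were searched on both strands of RefSeq windows (GRCm38.p6) that run from 250 bases before to 50 bases after each transcript start. Of 32851 such windows of 300 bases, 13.4% held AGGGGA on the sense strand and 24.4% on either strand. Only the last 50 bases of a window lie past its transcript start, so that the rest of each mRNA was not searched. All 8 members were matched, with 11 windows. The sense strand held AGGGGA in 2 of them, both of *Gpx4* and overlapping, so that they show the same letters once. The window of *Gpx7* held it on the opposite strand alone, so that 3 of the 11 held it on either strand. These counts were not tested against the shares of all windows. The stretch of *Gpx4* is shown because the only sense match within the family's windows lies there, at chr10:80053589-80053618 on the plus strand, with AGGGGA in capitals.
Gpx4: gtcggctgcgtgAGGGGAggagccgctggc
The first capital is base 37 when counted from the transcript start at 80053565, and lies 58 bases before another start of *Gpx4* at 80053659. A match of letters is a description and was not tested for binding. The array probe of *Gpx4* is listed under 1 of the 4 RefSeq transcripts of the gene, and its position in the transcript is not used here, so that it is not determined which forms of *Gpx4* mRNA it reads.

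Signals are given as log2 of the quantile-normalized processed signal, averaged over the arrays of a mouse. The repeat array of Grsf1cKO 1 stood apart, with 88.9% of spots well above background beside 66.3% to 73.1% on the other 7 arrays. Slide 1 held WT arrays alone, the first of WT 1 and that of WT 2. *Grsf1*, the deleted gene, had log2 signals of 12.15, 12.02 and 12.08 (Grsf1cKO 1 to 3) against 14.30, 14.25 and 14.27 (WT 1 to 3). All 3 Grsf1cKO mice lay below all 3 WT mice. The signal fell by 2.19 on the log2 scale (95% interval -2.39 to -1.99, limma adjusted *p* = 0.00328), to 0.219 times that of WT muscle. With 1 mouse left out at a time, the difference was -2.22 to -2.16 and the adjusted *p* 0.0343 to 0.0657, so that the call was lost in 4 of 6 cases. With the arrays of slide 2 alone, which carried all Grsf1cKO arrays, WT 3 and the repeat of WT 1, the adjusted *p* was 0.0622. Where the *Grsf1* probe lies relative to exons 4 and 5 was not determined. In RNA from whole muscle, fewer cells with *Grsf1* and less *Grsf1* RNA per cell cannot be told apart.

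No glutathione peroxidase mRNA was called different between the genotypes. A probe was tested when it was well above background on all arrays of at least 3 mice, and 6 of the 8 members, *Gpx1*, *Gpx2*, *Gpx3*, *Gpx4*, *Gpx7* and *Gpx8*, passed on all 8 arrays. By limma, 0 of these 6 had an adjusted *p* under 0.05, beside 0.00771% (3 of 38888) of all probes tested. At an unadjusted *p* under 0.05 the count was also 0, beside 4.25% of all probes, and 0 members had genotypes that did not overlap, beside 9.35%. The *z*-test of the study's methods, at an adjusted *p* under 0.05 as for limma, called 0 of the 6 as well, beside 2.46% of all probes, and gave 0 an unadjusted *p* under 0.05, beside 10.8%. The adjusted *p* of the 6 members ran from 0.996 to 0.998. Their log2 fold changes, Grsf1cKO over WT, were above 0 for 5 and below 0 for 1, although *Gpx8* turned below 0 with scaling to the 75th percentile, and *Gpx1* and *Gpx8* did with normexp background correction. Their median was 0.04, beside -0.03 over all probes tested, of which 42.5% were above 0, although the median over all probes turned to 0.02 with scaling to the 75th percentile.

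**Figure D1:**
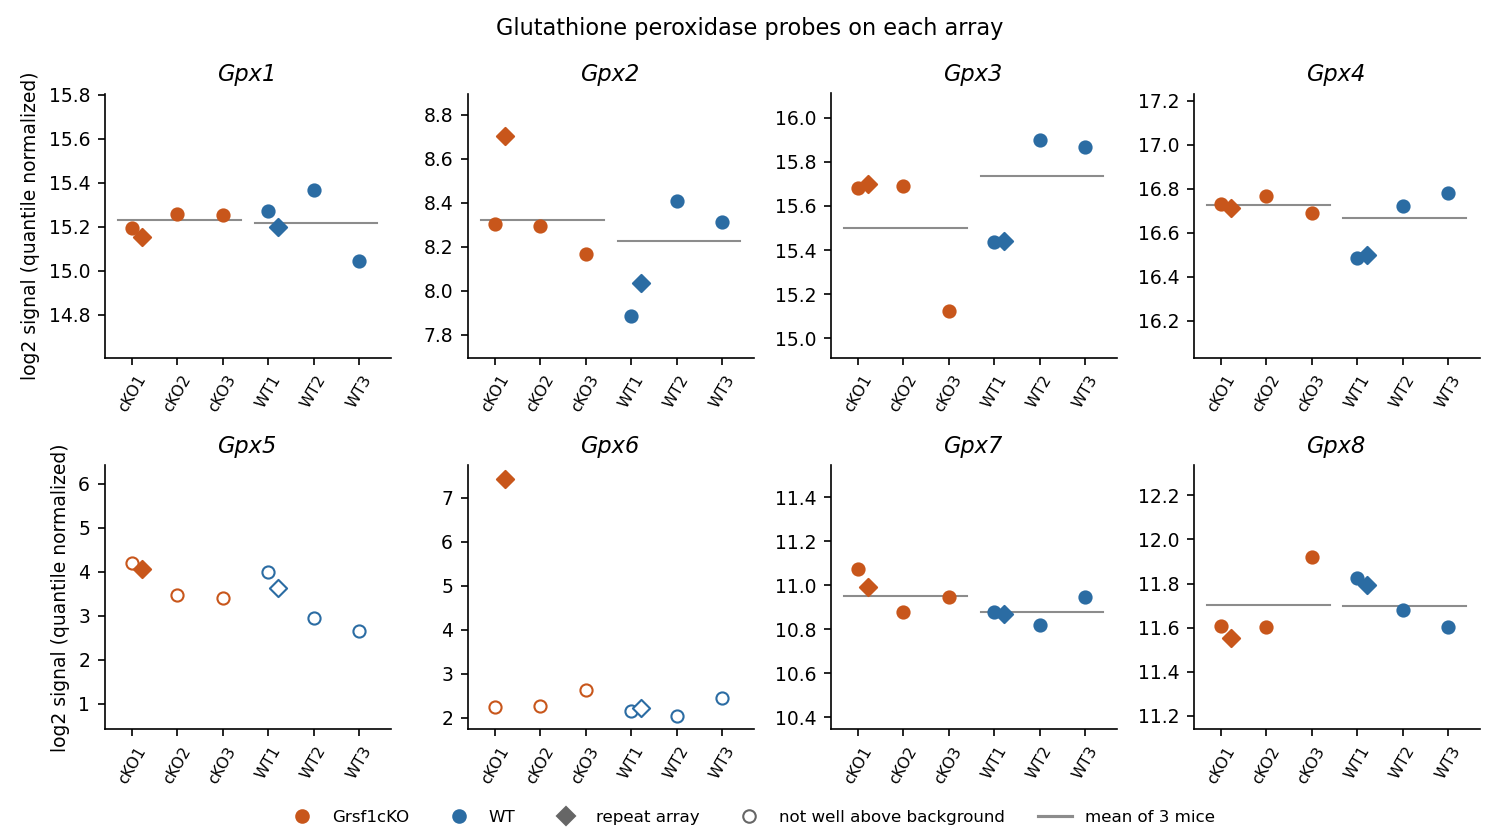
Log2 signal (quantile normalized) of the probe of each glutathione peroxidase on every array, by mouse, with repeat arrays as diamonds, open symbols where the spot was not well above background, and gray lines for the mean of 3 mice of a genotype; the vertical axis spans the same range for the 6 tested genes and a wider one for *Gpx5* and *Gpx6*. The genotypes overlap for all 6 tested genes, and *Gpx5* and *Gpx6* have a filled symbol on the repeat array of Grsf1cKO 1 alone.

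*Gpx4* had log2 signals of 16.72, 16.77 and 16.69 (Grsf1cKO 1 to 3) against 16.49, 16.72 and 16.78 (WT 1 to 3). The Grsf1cKO mice lay close together, between the lowest and the highest WT mouse, and WT 1 was the lowest of the 6. The Grsf1cKO mean and SD (n = 3 mice) was 16.73 ± 0.04, against 16.66 ± 0.15 for WT (n = 3 mice). The log2 fold change of 0.06 had a 95% interval of -0.20 to 0.32 and a limma adjusted *p* of 0.997, and the exact permutation *p* over the 6 mice (two-sided) was 0.9, where 0.1 is the smallest that 20 regroupings of 3 against 3 mice can give. On the linear scale, the Grsf1cKO signal was 1.04 times that of WT, with a limma 95% interval of 0.873 to 1.25, which includes no difference. The log2 fold change of 0.06 was smaller than the pooled SD of mice within a genotype, 0.11. The low value of WT 1 was measured on both of its arrays, 16.48 on slide 1 and 16.50 on slide 2. Without WT 1, the log2 fold change of *Gpx4* was -0.02, on the other side of 0. It was 0.06 with slide as a block and 0.08 on slide 2 alone.

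Whether *Gpx4* differed from the other members in its response to genotype was tested on the log2 signal of *Gpx4* minus that of the other member within each mouse, a quantity in which only the difference between genotypes can be read. Among the 5 pairs, the difference between genotypes was farthest from 0 for *Gpx4* minus *Gpx3*. This quantity was 1.03, 1.08 and 1.57 (Grsf1cKO 1 to 3) against 1.05, 0.82 and 0.91 (WT 1 to 3). Grsf1cKO 1 lay below WT 1, so that the genotypes overlapped, and Grsf1cKO 3 stood above the other mice. The difference, Grsf1cKO minus WT, was 0.30 (exact permutation *p* = 0.2, 0.9 after Benjamini-Hochberg adjustment over the 5 pairs), and 0.13 without Grsf1cKO 3. For the other 4 pairs it was 0.05 (*Gpx1*), -0.03 (*Gpx2*), -0.01 (*Gpx7*) and 0.06 (*Gpx8*), with an exact permutation *p* of 0.7 to 0.9. For *Gpx1* the genotypes overlapped with all mice and not without WT 3, when the difference was 0.195 (exact permutation *p* = 0.1). For *Gpx3*, whether the genotypes overlapped depended on the setting. They did not overlap with scaling to the 75th percentile (0.32), normexp background correction (0.31), the deposited *z*-scores (0.0783 in units of *z*) or the first array of each mouse alone (0.31), each with an exact permutation *p* of 0.1, the smallest these 6 mice can give. Nor did they overlap without Grsf1cKO 1 (0.39, exact permutation *p* = 0.1) or without WT 1 (0.36, exact permutation *p* = 0.3). On slide 2 alone the difference was 0.24 (exact permutation *p* = 0.5). The sign of the difference changed with at least 1 alternative setting or mouse left out for the pairs with *Gpx1*, *Gpx2*, *Gpx7* and *Gpx8*, and with none for *Gpx3*. Settings that change only the filter or the test cannot move this difference.

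**Figure D2:**
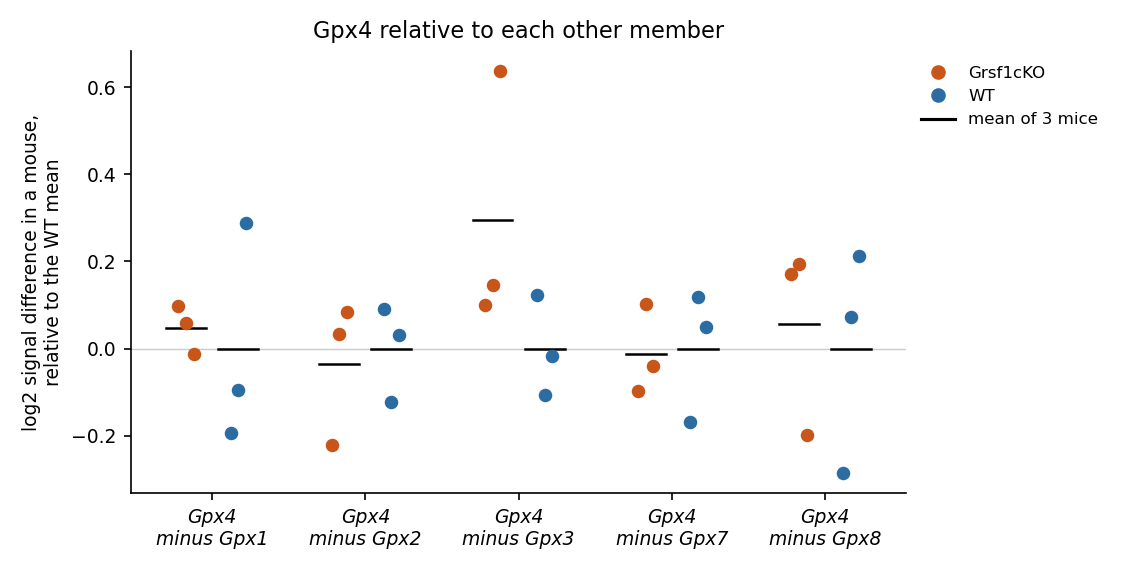
Log2 signal of *Gpx4* minus that of each other tested member in each mouse, shown relative to the WT mean of that pair; points are mice and bars the mean of 3 mice. Genotypes overlap in all 5 pairs, and the point farthest from the WT mean is Grsf1cKO 3 for *Gpx3*.

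Of the other selenocysteine-containing members, *Gpx1* encodes the enzyme of cytosol and mitochondria that reduces hydrogen peroxide. Its log2 signals were 15.17, 15.26 and 15.25 (Grsf1cKO 1 to 3) against 15.24, 15.37 and 15.04 (WT 1 to 3). The highest and the lowest of the 6 values were both from WT mice. The log2 fold change was 0.01 (95% interval -0.25 to 0.28), and it turned to -0.07 without WT 3 and to -0.01 after normexp background correction. It was 0.08 with slide as a block and 0.11 on slide 2 alone, still within that interval. *Gpx2*, known for its expression in the epithelium of the gut, had 8.50, 8.30 and 8.17 (Grsf1cKO 1 to 3) against 7.96, 8.41 and 8.31 (WT 1 to 3). Here, too, WT 1 was the lowest mouse, and the genotypes overlapped. The log2 fold change of *Gpx2* was 0.10 (95% interval -0.28 to 0.48) and was -0.04 without WT 1, 0.10 with slide as a block and 0.15 on slide 2 alone. Its value in Grsf1cKO 1 averages 8.30 on the first array and 8.71 on the repeat array, which differ by more than the genotypes do.

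*Gpx3* encodes the secreted enzyme of plasma. Its log2 signals were 15.69, 15.69 and 15.12 (Grsf1cKO 1 to 3) against 15.44, 15.90 and 15.87 (WT 1 to 3). Grsf1cKO 3 was the lowest of the 6 mice, and WT 1 lay below Grsf1cKO 1 and 2. *Gpx3* had the log2 fold change farthest from 0 in the family, -0.23, with the widest 95% interval (-0.75 to 0.28, limma adjusted *p* = 0.996, exact permutation *p* = 0.5). Single mice moved it by over 1.5 times: it was -0.05 without Grsf1cKO 3 and -0.39 without WT 1, when all 3 Grsf1cKO mice lay below the remaining WT mice. It was -0.19 with slide as a block and -0.15 on slide 2 alone. For this probe the repeat array differed from the first by 0.02 in Grsf1cKO 1 and by 0.01 in WT 1, beside a range of 0.77 over the 6 mice.

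*Gpx7* and *Gpx8* encode enzymes of the endoplasmic reticulum that have cysteine in place of selenocysteine and take part in oxidative protein folding. *Gpx7* had log2 signals of 11.03, 10.88 and 10.95 (Grsf1cKO 1 to 3) against 10.88, 10.82 and 10.95 (WT 1 to 3). The 6 mice were within 0.21 of each other on the log2 scale, the narrowest range among the tested members. The log2 fold change was 0.07 (95% interval -0.14 to 0.29, exact permutation *p* = 0.3), 0.06 with slide as a block and 0.04 on slide 2 alone. Without WT 3, all 3 Grsf1cKO mice lay above the remaining WT mice, with a log2 fold change of 0.11 and a limma adjusted *p* of 0.998. *Gpx8* had 11.58, 11.60 and 11.92 (Grsf1cKO 1 to 3) against 11.81, 11.68 and 11.60 (WT 1 to 3). Grsf1cKO 3 was the highest mouse and Grsf1cKO 1 the lowest. The log2 fold change was 0.01 (95% interval -0.30 to 0.31), -0.10 without Grsf1cKO 3, and -0.01 when arrays were scaled by their 75th percentile instead, while slide as a block and slide 2 alone each gave 0.01.

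**Figure D3:**
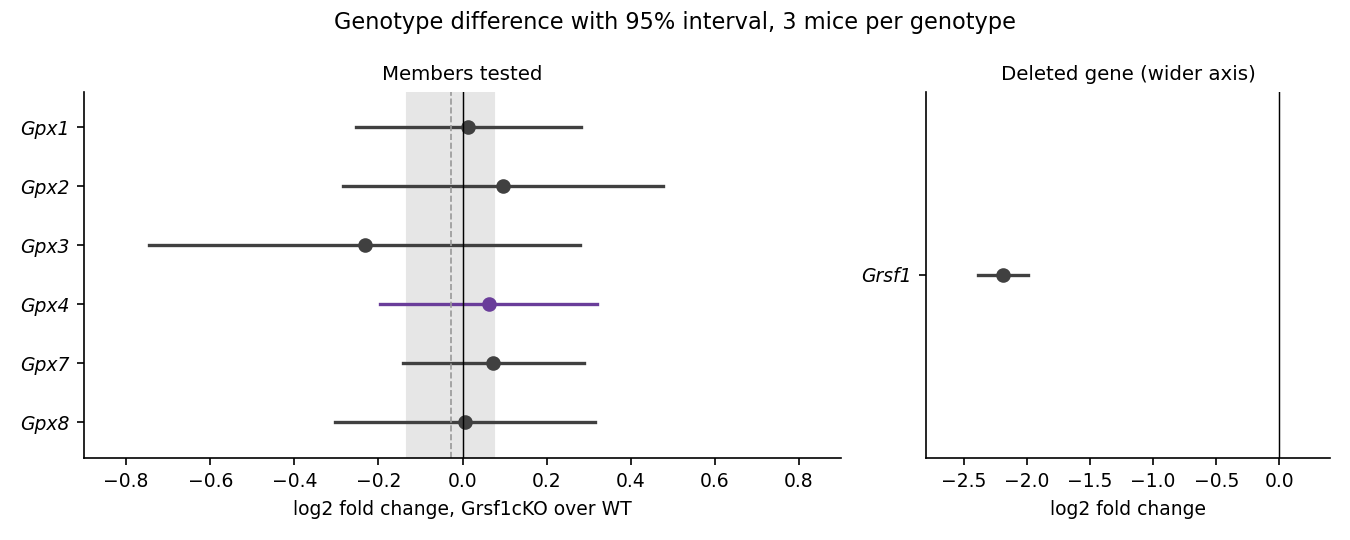
Log2 fold change (Grsf1cKO over WT) with its 95% interval for the 6 tested members and, on a wider axis, for *Grsf1*; the gray band runs from the 25th to the 75th percentile of all 38888 tested probes and the dashed line is their median. The 6 intervals of the members include 0, and that of *Grsf1* runs from -2.39 to -1.99.

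*Gpx5*, known from the epididymis, and *Gpx6*, known from the olfactory epithelium, were well above background in 0 of 6 mice, so that no fold change is given. Their processed signals on the 7 arrays other than the repeat of Grsf1cKO 1 ran from 3.77 to 17.3 for *Gpx5* and from 3.26 to 5.49 for *Gpx6*. On the repeat array of Grsf1cKO 1 alone, both spots passed as well above background, with processed signals of 57.7 for *Gpx5* and 253 for *Gpx6*. After quantile normalization *Gpx5* had about the same log2 signal on both arrays of this mouse, 4.20 and 4.06, whereas *Gpx6* went from 2.25 to 7.43. The local background beside the *Gpx6* spot was 214.5 on that repeat array and 29 to 45 on the other 7 arrays. Without that array, the log2 fold change was 0.07 for *Gpx4*, 0.03 for *Gpx2* and -0.24 for *Gpx3*.

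Markers of the cell types that a muscle holds were read beside the members, mouse by mouse. All 10 muscle fiber markers were well above background in all 6 mice, and so were the markers found on the array for adipocytes (7), red blood cells (4), macrophages and leukocytes (6), endothelium (5), fibroblasts (5) and Schwann cells (4). None of these genes passed an adjusted or an unadjusted *p* of 0.05. Grsf1cKO 3, the mouse with the lowest *Gpx3* and the highest *Gpx8*, had the highest macrophage and leukocyte markers, with a mean log2 signal over the 6 genes of 12.20 beside 11.22 to 11.51 in the other mice. Their summed signals were 22869, 23463 and 40770 (Grsf1cKO 1 to 3) against 24786, 26132 and 21943 (WT 1 to 3), and the brightest probe was that of *Csf1r*. The mean of the fibroblast markers was also highest in Grsf1cKO 3, where *Col1a1*, *Col3a1* and *Lum* but not *Dcn* and *Pdgfra* were highest, with a mean log2 signal of 14.84 beside 14.29 to 14.65, summed signals of 303695, 293040 and 318561 (Grsf1cKO 1 to 3) against 315448, 270569 and 275206 (WT 1 to 3), and *Dcn* as the brightest. The mean log2 signal of the 10 muscle fiber markers was lowest in WT 1, the lowest mouse for *Gpx4* and *Gpx2*, at 16.91 beside 16.99 to 17.21. The markers did not move together there, in genes picked after their values were seen. *Myh7* and *Tnnt1* of slow fibers, *Ckm* and *Tnnt3* were lowest in WT 1, and *Acta1* and *Myh4* were highest. *Myh7* was 11.35, 9.46 and 9.39 (Grsf1cKO 1 to 3) against 9.27, 11.38 and 11.33 (WT 1 to 3). *Tnnt1* was 12.70, 12.25 and 14.38 (Grsf1cKO 1 to 3) against 11.98, 12.79 and 13.02 (WT 1 to 3). *Ckm* was 18.05, 18.16 and 17.97 (Grsf1cKO 1 to 3) against 17.80, 17.97 and 18.03 (WT 1 to 3). The summed signals of all 10, led by *Tnnt3*, were 3064336 in WT 1 and 3029736 to 3179770 in the others. Quantile normalization leaves the brightest probes nearly fixed: *Tnnt3* was 19.08 in WT 1 and 19.13 in each other mouse. A sum that they lead therefore cannot show whether fiber content differed. Among WT mice *Gpx1* was highest in WT 2 and lowest in WT 3, which were also the highest and the lowest of the 6 mice for red blood cell markers, with mean log2 signals of 16.17 and 15.24 and *Hba-a1* as the brightest. Adipocyte markers had mean log2 signals of 12.68, 13.11 and 12.46 (Grsf1cKO 1 to 3) against 13.32, 13.25 and 12.22 (WT 1 to 3), with *Fabp4* as the brightest. The part of these cell types in the values of *Gpx1*, *Gpx2*, *Gpx3*, *Gpx4* and *Gpx8* was not tested. Over the lists, the median log2 fold change was 0.01 for muscle fiber, -0.14 for adipocyte, -0.08 for red blood cell, 0.16 for macrophage and leukocyte, -0.06 for endothelial, 0.21 for fibroblast and 0.08 for Schwann cell markers.

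**Figure D4:**
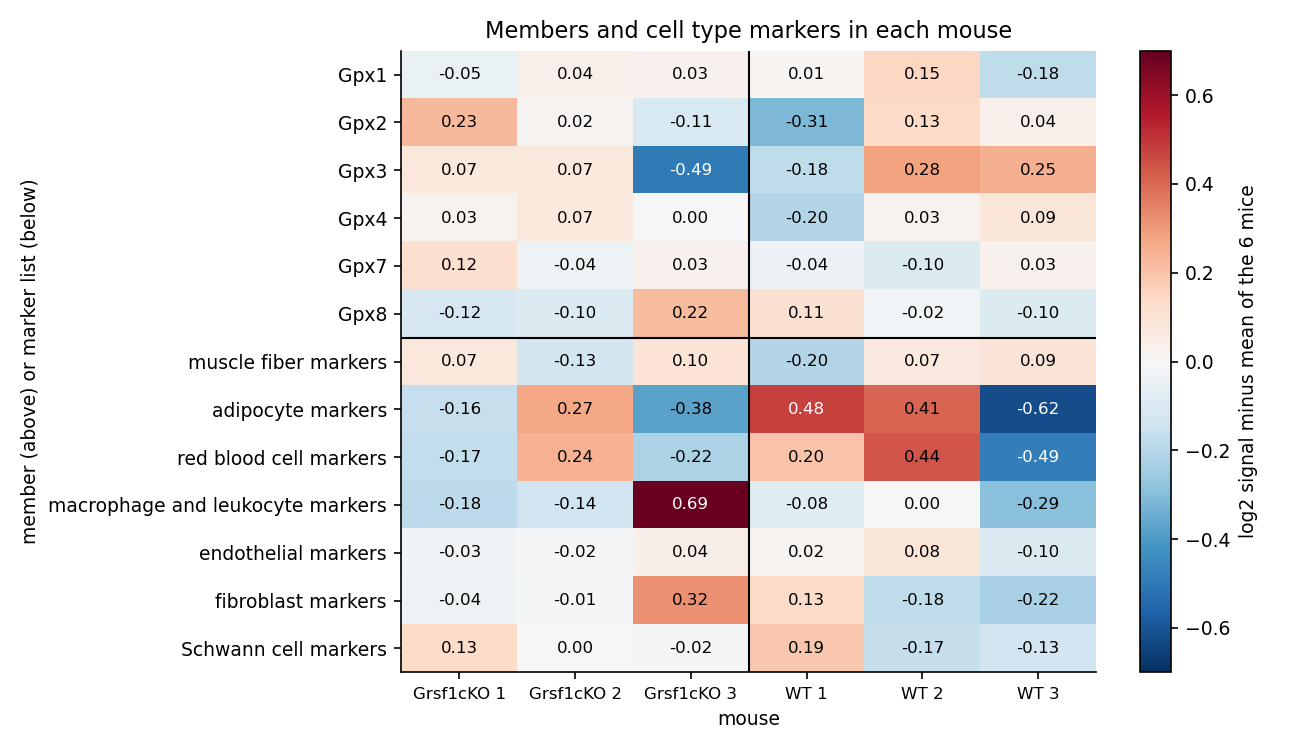
Log2 signal in each mouse minus the mean of the 6 mice, for the 6 tested members (upper block) and for the mean over each list of cell type markers (lower block), with color and number giving the same value. Among the members the values farthest from the mean are Grsf1cKO 3 for *Gpx3* (-0.49) and WT 1 for *Gpx2* (-0.31), and among the lists Grsf1cKO 3 for macrophage and leukocyte markers (0.69) and WT 3 for adipocyte markers (-0.62).

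The genes that work beside the glutathione peroxidases were read in 6 lists of 99 genes, of which 94 were tested. By limma, 0 of the 94 had an adjusted *p* under 0.05 and 3 (3.19%) an unadjusted *p* under 0.05, beside 4.25% of all probes, while the *z*-test of the study's methods gave 9 (9.57%) an unadjusted *p* under 0.05, beside 10.8% of all probes. In 5 of them (5.32%) the genotypes did not overlap, beside 9.35%, and the median log2 fold change was -0.01 beside -0.03. The 3 genes were *Ggt6*, of the family that cleaves extracellular glutathione, *Mgst1*, a membrane-bound glutathione transferase with peroxidase activity, and *Slc40a1*, the iron exporter ferroportin. *Ggt6* had log2 signals of 9.07, 7.98 and 8.82 (Grsf1cKO 1 to 3) against 7.36, 7.05 and 7.19 (WT 1 to 3). All 3 Grsf1cKO mice lay above all WT mice, with a log2 fold change of 1.43 (95% interval 0.72 to 2.13, limma adjusted *p* = 0.996, exact permutation *p* = 0.1). The unadjusted limma *p* of *Ggt6* was 0.00253, and 0.00272 with slide as a block and 0.0109 on slide 2 alone. With a mouse left out, the log2 fold change of *Ggt6* was 1.24 to 1.74. The unadjusted limma *p* there was 6.93e-05 to 0.0114 and the adjusted *p* 0.536 to 0.998. The *z*-test of the study's methods called *Ggt6* alone of the 94 genes at an adjusted *p* under 0.05 (adjusted *p* = 0.00246), beside 958 probes (2.46%) on the whole array. This threshold is not that of the study, whose own criteria were not applied to the *z*-test here. *Mgst1* (-0.39, 95% interval -0.76 to -0.03) and *Slc40a1* (-0.35, -0.69 to -0.02) had lower log2 signals in all 3 Grsf1cKO mice than in any WT mouse, each with a limma adjusted *p* of 0.996. *Mgst1* was read by the brighter of its 2 probes alone, and *Slc40a1* had 1 probe. The unadjusted limma *p* of *Mgst1*, 0.0380, went to 0.0701 with slide as a block and 0.0688 on slide 2 alone. That of *Slc40a1*, 0.0419, was 0.0418 and 0.0527 there. The log2 fold changes there were -0.33 and -0.39 for *Mgst1* and -0.36 and -0.41 for *Slc40a1*. With a mouse left out, the unadjusted limma *p* ran from 0.0291 to 0.116 for *Mgst1* and from 0.0243 to 0.121 for *Slc40a1*. Neither gene kept a *p* under 0.05 throughout.

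Within the lists, the other peroxide-removing enzymes, peroxiredoxins and catalase, had 3 of 7 genes above 0 and 4 below, from *Prdx1* (-0.13) to *Prdx2* (0.18). The genotypes did not overlap for *Prdx2* (exact permutation *p* = 0.1), read by the brighter of its 2 probes alone. Its unadjusted limma *p* was 0.0960, 0.0415 with normexp background correction and 0.150 on slide 2 alone. By the *z*-test of the study's methods its unadjusted *p* was 0.00387 and its adjusted *p* 0.108. Glutathione synthesis and recycling had 6 of 13 above 0, and the gene with the lowest log2 fold change was *Gclm* (-0.21), the modifier subunit of glutamate-cysteine ligase. Of the glutathione-using enzymes 16 of 28 were above 0, the highest being the transferase *Gsta2* (0.97, 95% interval -0.44 to 2.38, and 0.36 without Grsf1cKO 3), for which Grsf1cKO 3 had 7.73 and the other mice 4.90 to 6.08. The machinery that inserts selenocysteine, which *Gpx1* to *Gpx4* depend on, had 3 of 9 above 0, from the selenophosphate synthetase *Sephs2* (-0.12) to *Secisbp2* (0.07), which binds the selenocysteine insertion element. Of the other selenoproteins 9 of 20 were above 0, from the thioredoxin reductase *Txnrd1* (-0.18) to the deiodinase *Dio3* (0.31). *Dio3* was 0.56 with scaling to the 75th percentile, 0.45 with first arrays only and 0.40 without the repeat array of Grsf1cKO 1, with an unadjusted limma *p* of 0.0283, 0.0105 and 0.0117 and an adjusted *p* of 0.992 to 0.999. It was lower, 0.15, with normexp background correction, 0.19 with repeat arrays in place of the first and 0.25 with slide as a block. The unadjusted limma *p* there was 0.108, 0.369 and 0.325. *Dio3* had low log2 signals, 4.98 to 5.56 over the 6 mice. The lipid peroxidation and ferroptosis partners of *Gpx4* had 4 of 18 above 0 and 14 below, between *Slc40a1* and the lipoxygenase *Aloxe3* (0.33, 95% interval -0.66 to 1.31). *Aloxe3* was 0.67 with scaling to the 75th percentile and 0.64 without the repeat array of Grsf1cKO 1, with an unadjusted limma *p* of 0.0240 and 0.0268 and an adjusted *p* of 0.997 and 0.999, and it was -0.02 without Grsf1cKO 2. It was 0.13 with normexp background correction and 0.20 with repeat arrays in place of the first, with an unadjusted limma *p* of 0.255 and 0.771. *Aloxe3* had low log2 signals, 4.24 to 5.84, and was well above background in 5 of 6 mice. The medians of these 6 lists were -0.01, -0.04, 0.01, -0.06, -0.01 and -0.03 in the order given, beside -0.03 over all probes tested, of which 42.5% were above 0.

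**Figure D5:**
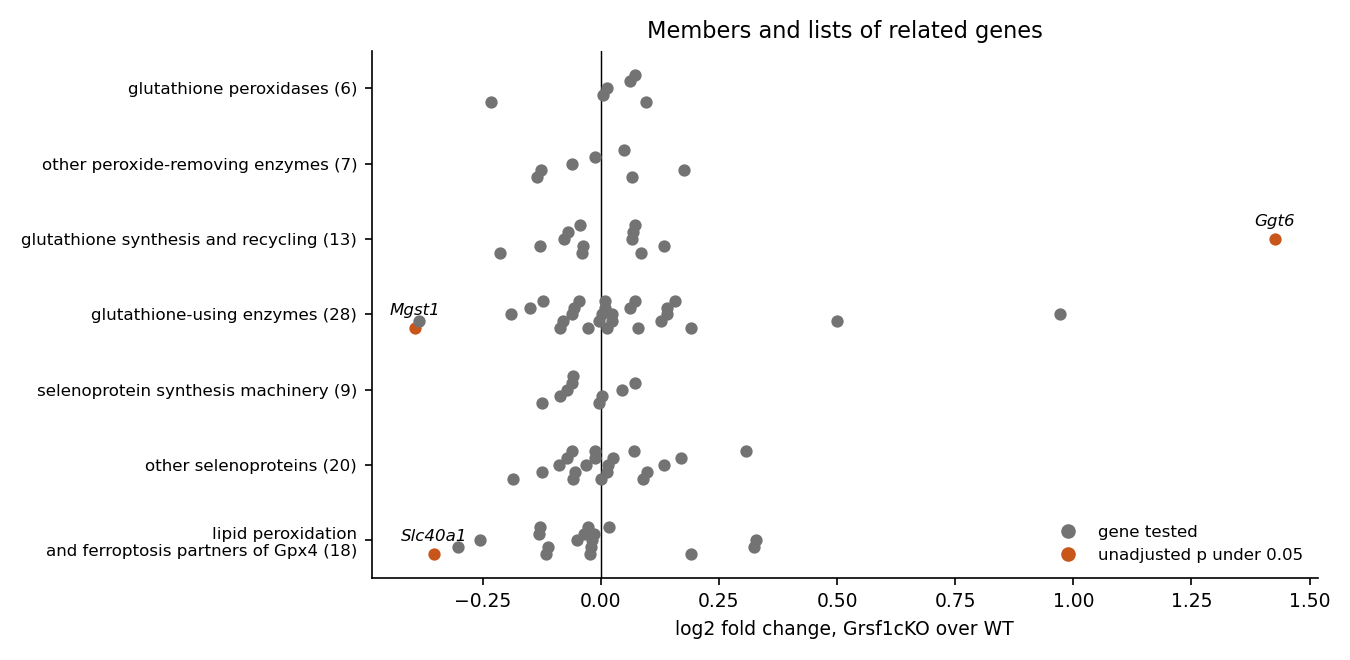
Log2 fold change (Grsf1cKO over WT) of the tested members and of each tested gene in 6 lists of related genes, with the number tested in parentheses; each point is a gene, spread vertically for legibility, and colored points have an unadjusted *p* under 0.05. The members lie between -0.23 and 0.10, and *Ggt6* is farthest from 0 with 1.43.

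The genes most like *Gpx4* across the 6 mice were sought among 17029 named genes by the root mean square difference of their log2 signals, each centered on its mean over the mice. The smallest differences were 0.0212 for *Rrp36*, 0.0226 for *Mob2* and 0.0233 for *Poldip2*, while *Gpx4* itself had an SD of 0.11 over the 6 mice. Like *Gpx4*, all 3 were lowest in WT 1, with log2 fold changes of 0.08, 0.03 and 0.06 and limma adjusted *p* of 0.996 to 0.998. They were picked for this likeness, which is a description over 6 mice.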

How the data were processed

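The authors deposited, per array, the spot intensity written by Agilent Feature Extraction 12.0.3.1, corrected for background within the array, and a table of scores. The deposited score is the *z*-score of log2 processed signal over the listed spots of an array, since recomputed scores differed by at most 0.005; it was not quantile normalized, although the methods name that step. Control spots were left out, outlier spots set to missing, and no non-control spot was saturated. Medians of the deposited score columns ran from -0.24 to -0.16. Quantile normalization, which the methods name without saying over which arrays, was done over all 8 together, and the log2 signal was averaged per probe, then per mouse. The filter kept 38888 probes that were well above background for 3 or more mice and had values for 2 or more mice per genotype. Genotype was the single term of the limma 3.58.1 fit (R 4.3.3), with Benjamini-Hochberg adjustment over the probes kept; intervals are 95% intervals of this fit. Permutation tests are exact and two-sided. Since arrays were averaged per mouse, the number of mice limits the precision. The limma fit was tested on simulated data. Alternatives were other scaling, background correction, filters, arrays and terms (slide, replicate block), the deposited scores, the methods' *z*-test and leaving out each mouse, all fixed before the values given here were computed, except where stated. Probes were named through RefSeq accessions (GRCm38.p6), which matched 32994 of 56605 probes; a gene of a list with several probes was read by its brightest. The *z*-test was read at an adjusted *p* under 0.05, not by the study's criteria. Named genes are the members, *Grsf1*, and in each pathway list those with unadjusted limma *p* under 0.05 over all arrays and those with the highest and the lowest log2 fold change, and the 3 genes most like *Gpx4* over the mice; the brightest gene of a marker list, other marker genes and pseudogenes are named beside this rule, with their values seen. The members and the lists were chosen with earlier results of these data known.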

Additional observations from a re-analysis of the deposited data

How the results depend on the processing

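The number of members called and the number with an unadjusted *p* under 0.05 were 0 under all 19 alternatives. *Gpx3* stayed below 0 and *Gpx7* above 0 under all of them, while *Gpx1*, *Gpx2*, *Gpx4* and *Gpx8* changed sign under at least 1. Alternatives that change only the filter, the variance estimate, the replicate block or the test cannot move a log2 fold change. Under those the sign was fixed in advance. Each gene of the family and *Grsf1* has 1 probe, so that averaging probes changes nothing there.

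*Gpx8* turned to -0.0122 with scaling to the 75th percentile, to -0.0163 with normexp (offset 50) and to -0.0117 in the deposited *z*-scores, where *Gpx2* was 0 (units of *z*). *Gpx1* turned to -0.0054 with normexp. *Gpx4* minus *Gpx7* turned to 0.0118 with normexp, 0.0383 in *z* units and 0.0409 on slide 2 alone. *Gpx4* minus *Gpx2* turned to 0.045 in *z* units, 0.0104 with first arrays only and 0.0348 without the repeat array of Grsf1cKO 1, an alternative chosen after seeing the data. *Gpx4* minus *Gpx1* turned to -0.0192 with slide as a block and to -0.0237 on slide 2 alone. *Grsf1* on slide 2 alone was -2.22 (adjusted *p* = 0.0622, and at most 0.25 over its alternatives), with fewer WT mice. The methods' *z*-test called 1 gene of the pathway lists, *Ggt6*, beside 2.46% of all probes, and gave 9 an unadjusted *p* under 0.05, beside 10.8% (limma 3, beside 4.25%). The cause was not tested.

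Leaving out each mouse in turn gave -0.0734 to 0.0898 for *Gpx1*, -0.0351 to 0.19 for *Gpx2*, -0.39 to -0.0471 for *Gpx3*, -0.0243 to 0.12 for *Gpx4*, 0.0328 to 0.11 for *Gpx7*, -0.10 to 0.066 for *Gpx8* and -2.22 to -2.16 for *Grsf1*. *Gpx4* minus another member gave -0.0498 to 0.195 (*Gpx1*), -0.0977 to 0.0599 (*Gpx2*), 0.13 to 0.39 (*Gpx3*), -0.0945 to 0.047 (*Gpx7*) and -0.0857 to 0.18 (*Gpx8*). The members without overlap were 0 to 1, *Gpx3* without WT 1 and *Gpx7* without WT 3. Among other genes, the range was -0.20 to -0.0572 for *Prdx1*, -0.29 to -0.12 for *Gclm*, 0.36 to 1.43 for *Gsta2*, -0.19 to -0.0743 for *Sephs2*, -0.27 to -0.12 for *Txnrd1*, 0.0016 to 0.13 for *Rrp36*, -0.013 to 0.12 for *Secisbp2*, -0.0173 to 0.82 for *Aloxe3*, -0.0476 to 0.094 for *Mob2* and -0.0485 to 0.13 for *Poldip2*. Probes called on the whole array were 3, and 0 to 3 with a mouse left out, 1 on slide 2 alone, and 958 by the methods' *z*-test.

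With the mouse number as a replicate block, *Grsf1* was -2.19 with an adjusted *p* of 0.25 and 0 probes were called, so that the call of *Grsf1* alone among the named genes was lost. With 1 value per mouse and number, this block cannot move a log2 fold change. Whether mice of the same number belong together is not given in the labels. The correlation of deviations was 0.232, 0.097 and 0.104 for the pairs 1, 2 and 3, and each Grsf1cKO mouse correlated best with the WT mouse of its number. For Grsf1cKO 2 the margin was narrow, 0.097 with WT 2 beside 0.0936 with WT 3. *Gpx5* and *Gpx6* were limited by signal over background, which gives no order below it.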

Other observations

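*Gpx2-ps1*, a pseudogene related to *Gpx2* and not a member, had a probe of its own, which was well above background in 3 of 6 mice, with a mean log2 signal and SD (n = 3 mice) of 4.24 ± 0.60 for Grsf1cKO against 4.14 ± 1.17 for WT (n = 3 mice). No fold change is given for it. The pseudogenes *Gpx4-ps1* and *Gpx4-ps2* were matched by 0 probes.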
